A study of Mus musculus with 15 samples.

Results

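Kidney messenger RNA of diabetic db/db mice was compared with that of m/m mice in 8 libraries of similar sequencing depth: m/m 1 to 5 and db/db vehicle 1 to 3. Every gene with a mean of at least 0.5 FPKM (fragments normalised to transcript length and sequencing depth, the authors' unit) over these 8 libraries was included, which gave 12314 of the 17832 genes in the deposited table. Both groups were male C57BLKS/J mice, 22 weeks old, and both were given 0.5% methylcellulose, the vehicle of a drug arm of db/db mice on dapagliflozin that is not described here. The db/db genotype is homozygous for the db mutation of the leptin receptor gene Lepr, which removes the signalling form of the receptor in every tissue. The control titles read WT, while their genotype is m/m. The labels do not expand m. The labels give the tissue as kidney with no dissection, so RNA of nephron segments, vessels and immune cells is mixed. Nothing in the labels ties each library to its own mouse, and the p-values therefore measure the spread between libraries, part of which may be technical. Db/db vehicle 4 and 5, with 1985740 and 1885233 reads in genes, were left out of the comparison because their libraries differ technically from the others, which held 14806659 to 16420535.

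Leptin informs the brain of the body's fat stores, and mice without its signalling receptor eat in excess, become obese and develop high blood glucose. In the kidney the proximal tubule reabsorbs most of the filtered glucose, amino acids and phosphate, burns fatty acids, makes glucose and secretes organic anions and drugs. Its segments S1 and S2 lie in the cortex and S3 reaches into the outer medulla, and in male mice many S3 genes are known to depend on androgens.

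Differences between the groups were tested gene by gene with limma on log2(FPKM + 1), and a gene was called at a Benjamini-Hochberg adjusted p under 0.05. More than 1 in 2 genes were called, 52.7% of those tested, with 41.6% (5125 genes) higher and 11.1% (1367 genes) lower in db/db. This split depends on how libraries are scaled. FPKM are relative to each library's total. In m/m 32.6% ± 0.855 of the reads (SD, n = 5) lay in the genes called lower, against 18.7% ± 0.831 (n = 3) in db/db. For the genes called higher the shares were 28.9% ± 0.559 in m/m and 41.7% ± 0.896 in db/db. Both sets were chosen from these same libraries, so the shares describe their size and are no separate support. When libraries were scaled by the median of their gene ratios instead, 19.2% of genes (2362) were higher and 24.6% (3024) lower. The median log2 fold change of all tested genes was 0.17 as deposited and −0.0032 after that scaling. All 1367 genes lower as deposited were lower in both, 2362 genes were higher in both, and 0 genes were called in opposite directions. Below, a named gene that rose or fell was called in both unless stated, log2 fold changes are on the log2(FPKM + 1) scale as deposited, and list counts are given as deposited and then after median-of-ratios scaling. Each list count is to be read beside the shares of all tested genes, 41.6% higher and 11.1% lower (19.2% and 24.6% after scaling). Adding 1 FPKM makes the log2 fold changes of genes at low levels smaller than their FPKM ratios.

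**Figure D1:**
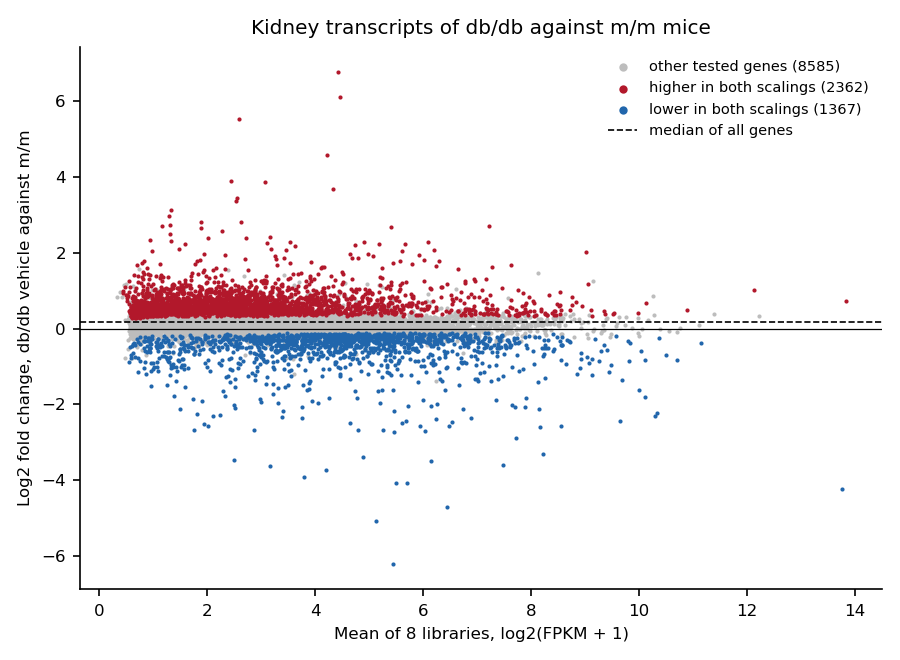
Log2 fold change of db/db vehicle against m/m, on the log2(FPKM + 1) scale as deposited, over the mean log2(FPKM + 1) of the 8 libraries for each of 12314 tested genes. Colours mark the 2362 genes higher and 1367 genes lower both as deposited and after median-of-ratios scaling; the dashed line is the median of all genes, 0.17.

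Large changes were few and of both signs. Among called genes 286 rose and 180 fell by at least 1 on the log2 scale (169 and 253 after scaling), and 10 rose and 14 fell by at least 3 (10 and 15). At 1 to 10 FPKM 47.2% of 5953 genes were higher and 6.16% lower, while at 100 FPKM and above 40.9% of 695 genes were higher and 27.8% lower. After scaling these shares were 23.7% higher and 14.5% lower at 1 to 10 FPKM, and at 100 FPKM and above the balance turned to 20.3% higher and 44.0% lower. The groups did not overlap in 49% of genes. The SD of log2 values was larger in db/db than in m/m for 7902 genes (64.2%), with medians of 0.118 and 0.0922. The first principal component, with 71.2% of the variance, separated the genotypes. The next, with 11.7%, had db/db vehicle 1 at one end and db/db vehicle 2 at the other, and m/m 1 was the m/m library nearest to db/db vehicle 1 on it. Which genes drive this component was not tested. Db/db vehicle 1 was the highest db/db library in summed level for antigen presentation, macrophage, mesenchymal and failed-repair genes. The failed-repair sums were 3509, 1715 and 1824 FPKM in db/db vehicle 1 to 3. The level of Spp1 alone, given below, was the greater part of the failed-repair sum in each of these libraries. It was close in size to the macrophage sum too, so both sums may largely repeat it. Counts of these lists, and of some others, are also given without db/db vehicle 1.

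The largest rise was that of Cyp4a14, a fatty acid omega-hydroxylase. Its level was 2.796, 3.702, 1.99, 3.01 and 2.095 FPKM in m/m 1 to 5 and 482, 321 and 424 FPKM in db/db vehicle 1 to 3. Every db/db library was far above every m/m library, and the log2 fold change was 6.78 (95% interval 6.40 to 7.17, adjusted p = 1.11e-07). The related Cyp4a10 stood at 73.7 ± 13.7 FPKM (SD, n = 5) in m/m and 488 ± 95.9 FPKM (n = 3) in db/db, a log2 fold change of 2.71; reads of such close paralogs can be shared between them. Of the 15 largest rises and 15 largest falls, taken from called genes without overlap between groups, 28 were beyond the m/m range in the same direction in both left-out libraries, db/db vehicle 4 and 5. The other 2, the chloride channel regulator Clca3a1 and the B cell attracting chemokine Cxcl13, were so in 1 of them. The same share over all tested genes was not computed, so this count is no separate support. Sizes differed, with Cyp4a10 at 150 and 172 FPKM in db/db vehicle 4 and 5. In db/db vehicle 5 Slpi was at 0.921 and Lcn2 at 3.72 FPKM, near their highest m/m values of 0.538 and 2.28 FPKM.

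Transport of organic anions and cations, by which the proximal tubule clears drugs, urate and bile and steroid conjugates, changed gene by gene in both directions. Of 33 tested transporters 18 fell and 11 rose (19 and 5 after scaling), with a median of −0.40. Slco1a1, an uptake carrier for steroid and bile acid conjugates, was at 251, 152, 290.4, 202 and 224 FPKM in m/m 1 to 5 and at 1.57, 2.67 and 1.65 FPKM in db/db vehicle 1 to 3. The lowest m/m library exceeded the highest db/db library by a wide margin (log2 fold change −6.23, adjusted p = 3.11e-07). Slc22a26 and Slc22a19, organic anion transporters encoded on chromosome 19, fell with it. Slc22a26 was at 12.3, 17.02, 13.5, 10.2 and 12.7 FPKM in m/m and at 0.291, 0.259 and 0.208 FPKM in db/db (−3.48). Slc22a19 was at 66.8, 90.6, 77.3, 50.5 and 73.2 FPKM in m/m and at 8.53, 5.38 and 4.08 FPKM in db/db (−3.40), again without overlap between the groups. Slc22a28 and Slc22a30 fell by 2.67 each on the log2 scale, and reads of these close paralogs may be split among them. The basolateral anion exchanger Slc22a6 (−0.44), the cation transporter Slc22a2 (−1.16) and the urate exchanger Slc22a12 (−0.57, overlapping another gene) fell by less. Several ATP-driven exporters rose. Abcc4 was at 4.78, 5.36, 4.24, 7.71 and 5.35 FPKM in m/m and at 22.4, 28.2 and 27.7 FPKM in db/db (2.08, adjusted p = 2.37e-05). Abcc3 went from 0.384 ± 0.0807 to 6.64 ± 4.58 FPKM (2.31), highest in db/db vehicle 1 at 11.9 FPKM, and the P-glycoprotein genes Abcb1b (1.39) and Abcb1a (0.91) rose too.

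Promoter windows are shown for Slco1a1, Kap (kidney androgen-regulated protein, of the proximal tubule), Slc22a26 and Slc22a19, as genes that fell, and for Bhmt, as a gene that rose, because their levels did not overlap between genotypes and the motif letters below occur in them. Each window holds 250 bases before and 50 after the transcription start listed by RefSeq (build GRCm38.p6, by gene symbol; the files use GRCm39), 5′ to 3′ on the gene's strand. Capitals mark AGGTCA, the core letters bound by many nuclear receptors, AGAACA, core letters bound by steroid receptors, and TATAAA, the TATA box core, each on either strand; these motifs do not overlap one another in the windows shown.
Slco1a1 (chr6:141946913-141947212, minus strand): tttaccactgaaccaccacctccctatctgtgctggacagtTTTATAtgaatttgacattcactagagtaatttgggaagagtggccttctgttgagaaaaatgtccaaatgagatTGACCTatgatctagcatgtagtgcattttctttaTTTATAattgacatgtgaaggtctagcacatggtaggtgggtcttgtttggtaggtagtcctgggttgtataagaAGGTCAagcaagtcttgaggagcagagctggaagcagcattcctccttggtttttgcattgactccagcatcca
Kap (chr6:133853618-133853917, minus strand): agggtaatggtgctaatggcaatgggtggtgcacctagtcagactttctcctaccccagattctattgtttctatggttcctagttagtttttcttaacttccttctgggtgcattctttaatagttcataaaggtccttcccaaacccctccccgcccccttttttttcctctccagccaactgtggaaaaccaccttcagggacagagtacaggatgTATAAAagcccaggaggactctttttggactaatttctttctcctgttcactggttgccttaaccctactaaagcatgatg
Slc22a26 (chr19:7802618-7802917, minus strand): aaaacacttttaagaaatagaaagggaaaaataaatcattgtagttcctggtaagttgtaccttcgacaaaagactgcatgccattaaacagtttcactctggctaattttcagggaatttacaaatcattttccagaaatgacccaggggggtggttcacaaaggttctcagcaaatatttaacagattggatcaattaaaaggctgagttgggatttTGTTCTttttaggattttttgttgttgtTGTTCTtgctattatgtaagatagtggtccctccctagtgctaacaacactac
Slc22a19 (chr19:7711261-7711560, minus strand): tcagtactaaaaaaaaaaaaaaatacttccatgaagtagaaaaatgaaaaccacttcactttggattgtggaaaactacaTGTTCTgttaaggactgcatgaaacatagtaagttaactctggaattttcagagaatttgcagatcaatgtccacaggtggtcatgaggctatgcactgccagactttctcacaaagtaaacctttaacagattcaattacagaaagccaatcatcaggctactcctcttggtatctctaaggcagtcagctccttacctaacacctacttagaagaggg
Bhmt (chr13:93637709-93638008, minus strand): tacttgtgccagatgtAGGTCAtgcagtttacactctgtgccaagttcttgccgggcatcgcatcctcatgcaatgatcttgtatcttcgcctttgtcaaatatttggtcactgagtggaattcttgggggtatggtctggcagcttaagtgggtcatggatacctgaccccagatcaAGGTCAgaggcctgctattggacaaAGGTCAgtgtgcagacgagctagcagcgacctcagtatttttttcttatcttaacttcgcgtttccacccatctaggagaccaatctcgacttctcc
Of the 30 genes with the largest changes 24 had a window. AGGTCA was in 7 of these 24 windows, AGAACA in 5 and TATAAA in 7, while among 9867 tested genes with a window the shares were 12.6%, 12.4% and 7.14%. Among genes called lower by at least 1 on the log2 scale 15.7% of 140 windows held AGAACA and 15.7% AGGTCA. Among those called higher by at least 1 the shares were 15.1% and 16.5% of 218 windows. TATAAA was in 14.3% of the windows of genes called lower and 15.1% of those called higher, against 7.14% of all. The 5 windows with AGAACA included those of Ugt1a2 and Ugt1a10, which rose. The core letters of STAT5 sites, also searched, were in 3 of the 24 windows. They were in 10.7% of windows of genes called lower and 10.6% of those called higher, against 6.83% of all. A direct repeat bound by peroxisome proliferator receptors was in 0 of the 24. A match is a description of letters and shows no binding.

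Most markers of the proximal tubule segment S3 fell. Of 15 tested S3 markers 11 fell and 1 rose (12 and 1 after scaling), with a median of −1.78. It was −2.24 with 0.1 FPKM added in place of 1. Their summed level was 4163 to 5167 FPKM in m/m and 1325 to 1384 FPKM in db/db, without overlap. In bulk tissue fewer cells of a type and less RNA per cell cannot be told apart. Atp11a, a phospholipid flippase, fell from 176 ± 33.7 to 29.04 ± 8.499 FPKM (−2.58), and Slc7a13, a cystine and aspartate transporter, from 457 ± 46.8 to 41.1 ± 20.7 FPKM (−3.60). Larger falls in the list were those of Slc22a7, an organic anion transporter (−5.07), Acsm3, an acyl-CoA synthetase (−4.71), and Cyp7b1, an oxysterol hydroxylase (−4.09). The growth hormone receptor gene Ghr fell by 1.26 on the log2 scale. Slc5a1, the sodium-glucose cotransporter SGLT1, was the S3 marker that rose (0.96). Of 14 S1 and S2 markers 4 rose and 4 fell (2 and 4 after scaling), with a median of 0.10. This median had no stable sign, at −0.10 after scaling and −0.05 without db/db vehicle 2, and was 0.28 without db/db vehicle 1, 0.17 without m/m 4, 0.04 without m/m 3 and 0.06 without db/db vehicle 3. Within this list the endocytic receptor genes Lrp2 (−0.74) and Cubn (−0.41) fell, while the basolateral glucose transporter Slc2a2 (0.91) and the amino acid exchanger Slc7a8 (0.66) rose. Kap, the most abundant transcript of the m/m kidney, was at 42276, 39556, 45497, 39835 and 40876 FPKM in m/m and at 1989, 4050.2 and 1304 FPKM in db/db, and alone accounted for 2.53% of m/m reads against 0.149% of db/db reads.

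Thick ascending limb markers, which serve as a check of another segment, went both ways: 5 of 12 rose and 2 fell, or 3 and 4 after scaling and 3 and 4 without db/db vehicle 1. The share that rose, 41.7%, was near the 41.6% of all tested genes. Bsnd, a chloride channel subunit, rose (0.72), and Egf, whose product is shed into urine, fell from 394 ± 14.8 to 272 ± 14.2 FPKM. Umod, the uromodulin gene that defines this segment, and overlaps another gene, was at 749.6 ± 77.9 and 648 ± 133 FPKM and was not called as deposited.

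Of 15 genes of phosphate, sulfate, bicarbonate and proton transport 8 rose and 4 fell, or 4 and 5 after scaling. The number that rose was 5 without any one of m/m 5, db/db vehicle 1 or db/db vehicle 2, and the number that fell was 2 without db/db vehicle 3. Amino acid transporters went both ways. Of 24 tested 11 rose and 6 fell (8 and 7 after scaling). The glutamine carrier Slc38a3, which supplies the proximal tubule for ammonia production, was at 16.7, 22.7, 19.05, 16.4 and 15.03 FPKM in m/m and at 67.9, 91.7 and 62.6 FPKM in db/db, with no overlap (1.98, adjusted p = 2.81e-05). Slc7a12 (1.63), the glutamine carrier Slc1a5 (0.77), Slc43a2 (0.75) and Slc38a2 (0.72) rose as well. Slc1a4, a neutral amino acid exchanger, fell from 15.9 ± 1.85 to 5.005 ± 1.097 FPKM, and the cystinuria gene Slc3a1, which overlaps another gene, by 0.44 on the log2 scale. Glutamate dehydrogenase, Glud1, which acts in glutamine use, rose from 198 ± 11.1 to 359.5 ± 64.8 FPKM (0.84).

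**Figure D2:**
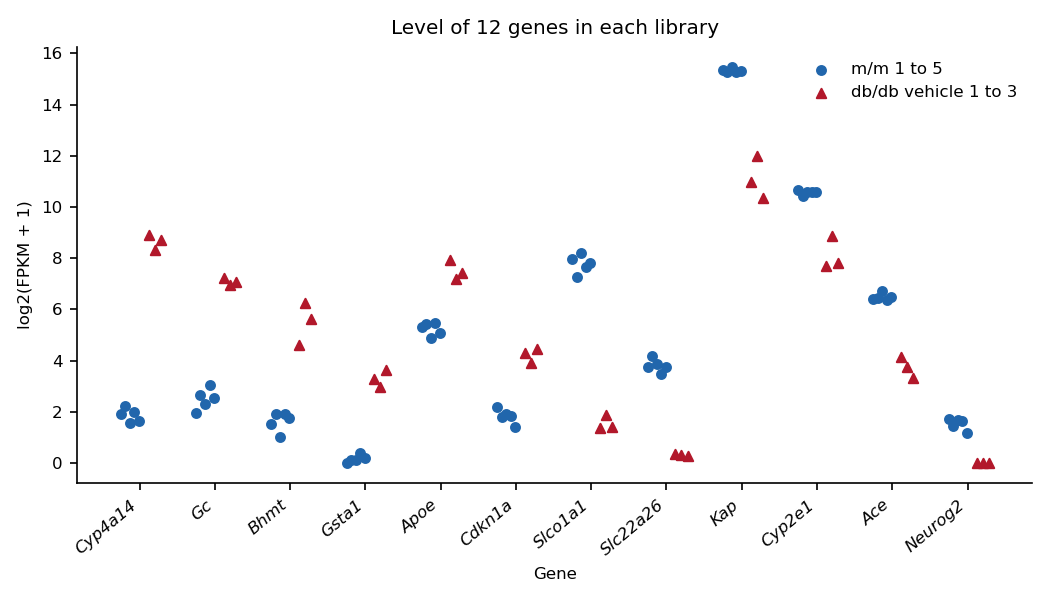
FPKM of 12 genes named in the text in each of the 8 libraries, on a log2(FPKM + 1) axis, circles for m/m 1 to 5 and triangles for db/db vehicle 1 to 3. The 3 db/db libraries sit above all m/m libraries for Cyp4a14, Gc, Bhmt, Gsta1, Apoe and Cdkn1a and below them for Slco1a1, Slc22a26, Kap, Cyp2e1, Ace and Neurog2.

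Enzymes that modify drugs and steroids changed in large numbers and in both directions. Of 26 cytochrome P450 genes outside the Cyp4a family 12 rose and 9 fell (8 and 10 after scaling). These shares, 46.2% and 34.6%, stand beside 41.6% and 11.1% of all tested genes. Their summed level was 5179 to 6030 FPKM in m/m and 1643 to 2536 FPKM in db/db. Cyp2e1, which oxidises ethanol and acetone, was at 1630.1, 1360.3, 1518, 1555 and 1544 FPKM in m/m and at 206, 463 and 226 FPKM in db/db (−2.44, adjusted p = 7.54e-05). Abundant members were among those that fell. Cyp4b1 went from 2328 ± 236 to 493 ± 66.4 FPKM (−2.24) and the epoxygenases Cyp2j13 (−2.70) and Cyp2j5 (−0.93) fell too. The close paralogs Cyp2a4 and Cyp2a5 moved in opposite directions, Cyp2a4 from 446 ± 38.8 to 60.2 ± 14.9 FPKM (−2.90) and Cyp2a5 from 46.3 ± 9.61 to 112 ± 14.04 FPKM (1.27), and how reads were divided between them is not known. Among those that rose were Cyp2d26 (1.56), Cyp2d22 (1.43) and Cyp1b1 (1.16).

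Conjugating enzymes also differed by family. Of 18 glucuronosyl- and sulfotransferases 8 rose and 6 fell (8 and 8). Ugt2b38, an abundant glucuronosyltransferase, fell from 733 ± 45.4 to 133 ± 66.4 FPKM (−2.57) and Ugt3a2 by 1.15 on the log2 scale, while Sult1d1 rose from 379 ± 11.6 to 616 ± 21.8 FPKM (0.70). Members of the Ugt1a locus share exons, so the rises of Ugt1a2 (5.53), Ugt1a10 (3.90) and Ugt1a1 (2.96) are uncertain as to which first exon they belong. Of 20 glutathione S-transferases 14 rose and 1 fell (10 and 1), with a median of 0.48. Gsta1 was at 0, 0.0739, 0.0759, 0.303 and 0.141 FPKM in m/m and at 8.63, 6.94 and 11.4 FPKM in db/db (3.14, adjusted p = 2.39e-06), from near the limit of detection to a low but clear level. Its paralog Gsta2 varied more, at 5.75, 51.9, 26.2, 43.99 and 8.35 FPKM in m/m and at 89.4, 115 and 233 FPKM in db/db (2.68), and the groups did not overlap. The microsomal transferase Mgst1 went from 36.2 ± 6.88 to 139.8 ± 16.7 FPKM (1.93), Gsto1 from 16.2 ± 1.67 to 62.6 ± 13.3 FPKM (1.87), and the epoxide hydrolase Ephx1 from 14.1 ± 1.31 to 68.5 ± 10.4 FPKM (2.19). The soluble epoxide hydrolase Ephx2, which inactivates epoxides made from arachidonic acid, fell by 0.74 on the log2 scale.

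More steroid and aldehyde oxidoreductases fell than rose: 14 of 30 fell and 9 rose (17 and 7 after scaling), with a median of −0.24. Akr1c14, which reduces steroid ketones, was at 150.3, 133, 175, 137 and 155 FPKM in m/m and at 6.11, 12.9 and 6.11 FPKM in db/db (−4.08, adjusted p = 4.85e-06). Hsd17b11 fell from 342 ± 62.9 to 82.5 ± 3.45 FPKM (−2.02). Hsd11b1, which regenerates active glucocorticoid, was at 124, 78.1, 161, 76.99 and 99.7 FPKM in m/m and at 30.8, 24.4 and 27.7 FPKM in db/db (−1.88), while Hsd11b2, which inactivates it in the distal nephron, rose from 56.3 ± 3.92 to 81.1 ± 16.3 FPKM (0.50). Akr1c13 (1.91), Akr1c12 (1.60) and the retinaldehyde dehydrogenase Aldh1a1 (1.33) rose. Of 20 flavin monooxygenases, esterases and amidases 7 fell and 5 rose (10 and 3), with carboxylesterase Ces1f going from 564 ± 57.4 to 104 ± 58.8 FPKM (−2.60) and Fmo5 falling by 2.34 on the log2 scale. Inmt, an amine methyltransferase, was at 621, 646, 675, 921 and 711 FPKM in m/m and at 29.5, 207 and 54.6 FPKM in db/db (−3.33), lower in every db/db library and highest there in db/db vehicle 2.

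Of 25 genes of polyol and fructose metabolism 13 rose (52%, against 41.6% of all tested genes) and 4 fell (11 and 6 after scaling), with a median of 0.35, and 2 fell without m/m 5 or without db/db vehicle 3. The fructose transporter Slc2a5 was at 45.8, 49.1, 46.3, 57.3 and 44.1 FPKM in m/m and at 161, 173 and 134 FPKM in db/db (1.66, adjusted p = 1.16e-05). Ketohexokinase Khk, which phosphorylates fructose, went from 313 ± 9.46 to 482 ± 39.2 FPKM (0.62) and triokinase Tkfc from 133 ± 5.55 to 278 ± 16.00 FPKM (1.06, overlapping another gene). Akr1b3, the aldose reductase that makes sorbitol from glucose, fell from 51.7 ± 6.95 to 25.7 ± 7.56 FPKM (−1.01), and sorbitol dehydrogenase Sord was at 933 ± 73.6 and 942 ± 71.6 FPKM and was not called.

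Most lipid carrier and lipid droplet genes rose, while Cd36, which takes fatty acids into cells, and Lpl, which releases them from lipoproteins, fell. Of 35 tested 21 rose and 6 fell (17 and 9 after scaling), with a median of 0.49. Apoe, a lipoprotein ligand also made by macrophages, was at 38.4, 41.9, 28.2, 43.1 and 32.9 FPKM in m/m and at 243, 143 and 171 FPKM in db/db (2.28, adjusted p = 3.65e-05). Fabp1, the liver type fatty acid binding protein, rose from 0.1701 ± 0.179 to 4.12 ± 1.95 FPKM (2.06), Apoc3 by 1.76 and the acyl-CoA thioesterase Acot1 by 1.73, and the droplet coat genes Plin4 (1.36) and Plin5 (0.49) rose. The fatty acid translocase Cd36 was at 241, 143, 218, 133 and 162 FPKM in m/m and at 33.4, 28.4 and 30.1 FPKM in db/db (−2.48). Lipoprotein lipase, Lpl, was at 157, 158, 213, 156 and 264 FPKM in m/m and at 44.3, 42.99 and 37.02 FPKM in db/db (−2.14), so that both were lower in every db/db library and varied less there than in m/m. Peroxisomal genes were split, 14 of 40 up and 7 down, and the balance turned to 8 and 19 after scaling. Amacr, which prepares branched fatty acids and bile acid intermediates for oxidation, fell by 1.89 on the log2 scale, and Pex11a, which drives peroxisome division, rose (0.86).

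Of 32 genes of betaine, methionine, serine and one-carbon metabolism 9 rose and 5 fell (8 and 10 after scaling). The share that rose, 28.1%, was below the 41.6% of all tested genes. The median was 0.07, with −0.12 after scaling, 0.13 without db/db vehicle 1 and 0.0034 without db/db vehicle 2. Bhmt, which remethylates homocysteine with betaine, was at 1.91, 2.74, 1.01, 2.77 and 2.44 FPKM in m/m and at 23.6, 75.2 and 48.2 FPKM in db/db (3.87, adjusted p = 5.68e-05). Gldc, the decarboxylase of the glycine cleavage system, was at 46.8, 49.8, 35.2, 40.4 and 39.3 FPKM in m/m and at 166, 207 and 174 FPKM in db/db (2.08). Both were higher in every db/db library, with Bhmt lowest in db/db vehicle 1. The serine synthesis genes Psat1 (0.97) and Phgdh (0.83) rose, and cystathionine synthase Cbs, which draws homocysteine into cysteine synthesis, fell from 128 ± 7.53 to 41.2 ± 3.13 FPKM (−1.62). Of 33 genes of arginine, proline, glutamine, tryptophan and tyrosine metabolism 13 rose and 11 fell (12 and 14). Odc1, the ornithine decarboxylase of polyamine synthesis, was at 482, 259.6, 628, 254 and 419 FPKM in m/m and at 85.5, 124 and 114 FPKM in db/db (−1.84). Kynureninase, Kynu, was at 0.836, 2.705, 0.492, 1.35 and 1.06 FPKM in m/m and at 11.2, 9.25 and 11.1 FPKM in db/db (2.40, adjusted p = 0.000128). Mitochondrial arginase Arg2 (1.54, overlapping another gene) and the aminotransferase Gpt (1.18) rose, and argininosuccinate synthase Ass1 fell from 1759.7 ± 245 to 1096 ± 301 FPKM (−0.71).

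Genes of kidney hormone systems changed too. Of 22 renin-angiotensin and vasoactive genes 14 rose and 3 fell (12 and 4 after scaling), with a median of 0.52. Angiotensinogen, Agt, the precursor of angiotensin, was at 22.8, 31.4, 25.98, 17.9 and 24.4 FPKM in m/m and at 89.3, 59.4 and 77.4 FPKM in db/db (1.58, adjusted p = 0.000169). Ace, the converting enzyme, was at 83.6, 85.2, 104, 82.2 and 88.1 FPKM in m/m and at 16.8, 12.4 and 9.05 FPKM in db/db (−2.74, adjusted p = 9.87e-06). Agt was thus higher and Ace lower in every db/db library, while renin, Ren1, was at 53.9 ± 7.97 and 48.7 ± 21.7 FPKM and was not called. The endothelin receptor Ednrb (0.88), endothelin Edn1 (0.48) and the tissue kallikrein Klk1 (0.67) rose, and neprilysin, Mme, fell (−0.88).

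Among 19 genes of vitamin D, calcium, magnesium and phosphate control 12 rose and 2 fell (9 and 4). Gc, the vitamin D binding protein taken up from the filtrate, was at 2.93, 5.24, 3.89, 7.31 and 4.83 FPKM in m/m and at 150.4, 123 and 133 FPKM in db/db (4.59, adjusted p = 2.35e-06). Cyp27b1, which activates vitamin D, was at 2.42, 3.94, 1.17, 3.95 and 1.24 FPKM in m/m and at 6.62, 11.7 and 9.101 FPKM in db/db (1.58), and the catabolic Cyp24a1, at 78.8 ± 30.03 and 149.9 ± 150.1 FPKM, was not called. Members of the list that rose included calbindin Calb1 (1.32), the channel Trpv5 (1.01), the exchanger Slc8a1 (0.83) and the calcium pump Atp2b4 (1.03). Klotho, Kl, the coreceptor of the phosphate hormone FGF23, fell from 214 ± 4.52 to 135 ± 23.2 FPKM (−0.68) and the parathyroid hormone receptor Pth1r by 0.44.

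Of 28 nephron transcription factors 12 rose and 2 fell (8 and 6 after scaling). The share that rose, 42.9%, was near the 41.6% of all tested genes. Tcf21, of glomerular and stromal cells, rose by 1.21 on the log2 scale and Foxi1, of intercalated cells, by 0.92, while the proximal tubule regulator Hnf4a was at 246 ± 19.5 and 216 ± 10.2 FPKM and was called lower after scaling alone. Among 33 nuclear and hormone receptors 9 rose and 7 fell, a balance that turned to 4 and 14 after scaling, and 4 fell without db/db vehicle 3. The prolactin receptor Prlr was at 1.804, 2.696, 1.05, 3.18 and 1.29 FPKM in m/m and at 5.16, 9.01 and 8.67 FPKM in db/db (1.54), and the estrogen receptor Esr1 fell by 0.85 on the log2 scale. Clock genes of the period family rose: Per2 was at 2.52, 2.28, 2.78, 4.99 and 1.99 FPKM in m/m and at 5.700, 6.98 and 10.3 FPKM in db/db (1.16), Per1 rose by 1.15, and Npas2 fell by 0.82, a call kept in 6 of the 8 fits that leave out 1 library (9 of 18 clock genes rose and 1 fell, or 6 and 2; 4 rose without db/db vehicle 3). The labels give no time of day for the tissue. Of 19 immediate early genes 15 rose and 0 fell (8 and 0; 9 rose without db/db vehicle 3), among them Fosl2 (0.97), Klf2 (0.87) and Myc (0.67).

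**Figure D3:**
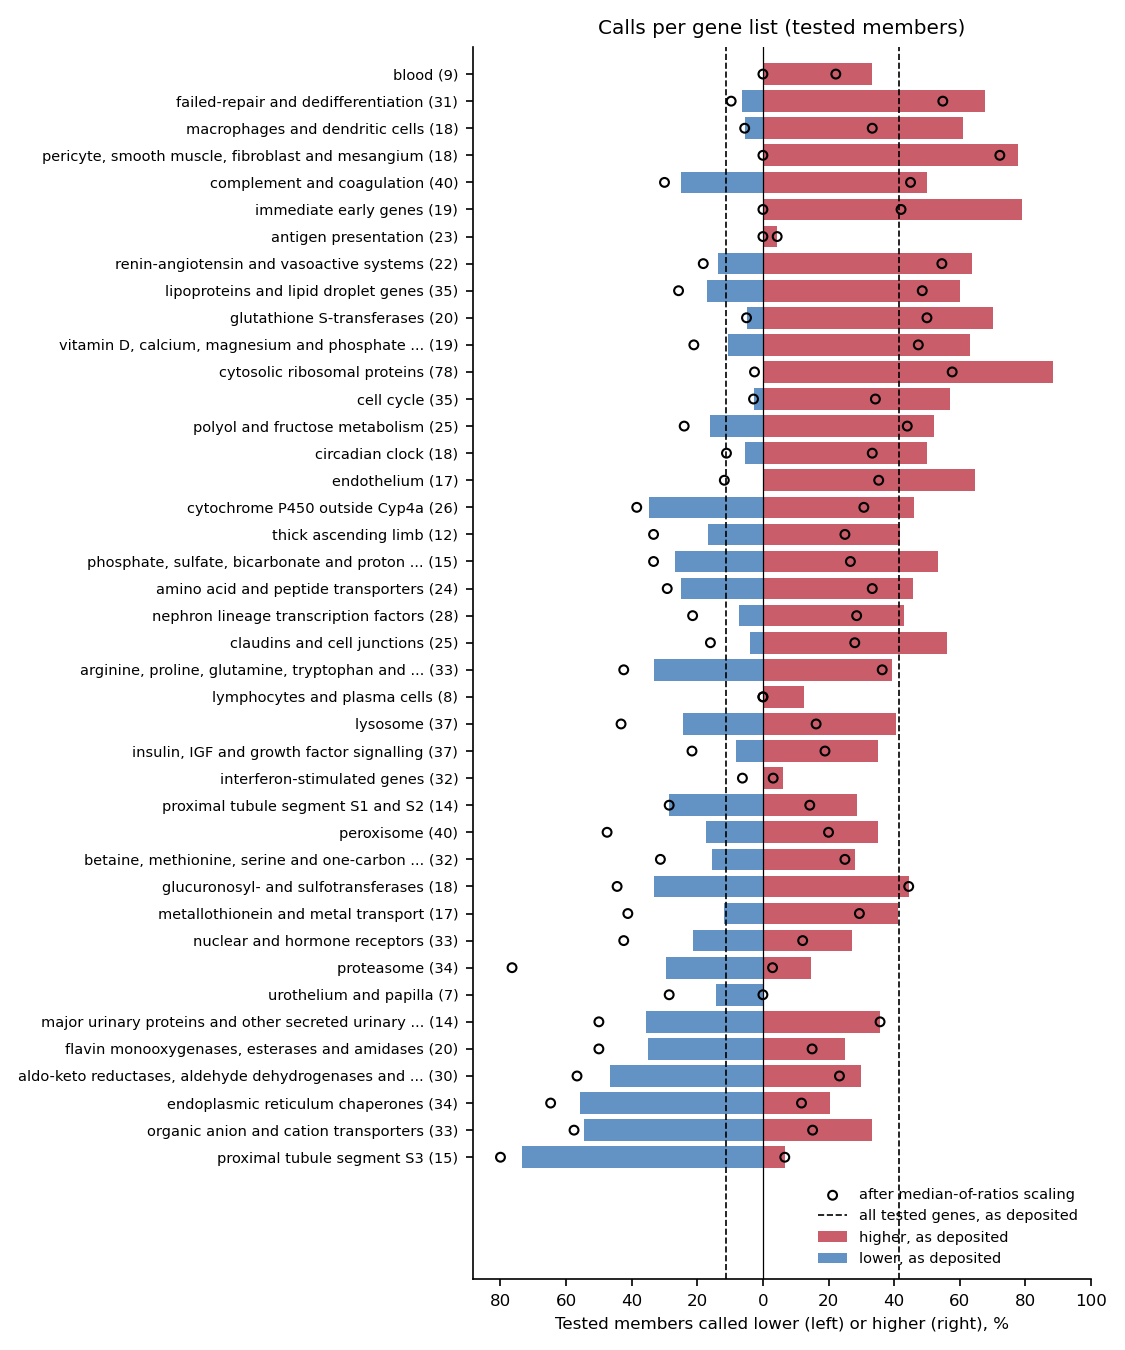
Percent of the tested members of each gene list with at least 7 tested that were higher (right) or lower (left) in db/db at a limma adjusted p under 0.05, bars for values as deposited and open circles after median-of-ratios scaling. Dashed lines mark all tested genes as deposited, 41.6% higher and 11.1% lower.

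Protein synthesis and folding genes went opposite ways. Of 78 cytosolic ribosomal protein genes 69 rose and 0 fell (45 and 2 after scaling), with a median of 0.37 (0.16 after scaling). Rpsa (0.90) and Rps2 (0.88) were highest among them, and Rps18 varied in m/m from 29.7 to 229 FPKM and was not called as deposited. Of 34 chaperones and related genes of the endoplasmic reticulum and cytosol 19 fell and 7 rose (22 and 4), with a median of −0.29. Hspa5, the main chaperone of the endoplasmic reticulum, fell from 254 ± 13.3 to 158 ± 23.7 FPKM (−0.69), Hsph1 by 1.01 and Hspa8 by 0.44. The stress factors Atf4 (0.61) and Ddit3 (0.66, overlapping another gene) rose. Among proteasome genes the lowest log2 fold change was −0.32, with 10 of 34 lower and 5 higher as deposited and 26 and 1 after scaling. Without m/m 5 or db/db vehicle 3 there were 6 lower and 2 higher, without m/m 4 or db/db vehicle 1 there were 2 higher, and without m/m 1, m/m 2 or m/m 3 there were 3 higher. In the lysosome list the balance turned with scaling, from 15 up and 9 down of 37 to 6 and 16. There Glb1, the beta-galactosidase, fell by 1.17 and cathepsin Ctss, of immune cells, rose by 1.24.

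Among growth control genes, Cdkn1a, the p21 inhibitor of the cell cycle, was at 3.52, 2.44, 2.79, 2.56 and 1.67 FPKM in m/m and at 18.7, 14.1 and 20.96 FPKM in db/db (2.40, adjusted p = 2.16e-05), and its p53 pathway partner Mdm2 rose by 0.64. Of 35 cell cycle genes 20 rose and 1 fell (12 and 1), among them ribonucleotide reductase Rrm2 (0.91) and Ccnd1 (0.72, overlapping another gene), while the division marker Mki67 was at 0.379 ± 0.0988 and 0.803 ± 0.552 FPKM and was not called. Of 37 insulin, IGF and growth factor genes 13 rose and 3 fell, or 7 and 8 after scaling, and 8 rose without db/db vehicle 3. The share that rose, 35.1%, was below the 41.6% of all tested genes. Fgf1 (−1.08) and the hepatocyte growth factor receptor Met (−0.95) fell and the signalling inhibitor Socs3 rose (1.05). Metallothioneins Mt1 and Mt2, which bind zinc and copper, rose from 40.3 ± 8.21 to 146 ± 45.3 FPKM and from 35.1 ± 7.37 to 120.3 ± 39.4 FPKM (log2 fold changes 1.81 and 1.72; Mt2 overlaps another gene), within a list of 17 in which 7 rose and 2 fell, or 5 and 7 after scaling. Of 25 claudin and junction genes 14 rose and 1 fell (7 and 4), or 8 and 2 without db/db vehicle 1, with Cldn4 at 0.83 and the scaffold Tjp3 at 0.93.

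Most injury genes rose, and db/db vehicle 1 was the highest db/db library for 28 of 31 of them. Of 31 genes of failed repair and dedifferentiation 21 rose and 2 fell (17 and 3 after scaling, and 17 and 3 without db/db vehicle 1), with a median of 0.89, or 0.49 without db/db vehicle 1. Spp1, osteopontin, which tubule cells and macrophages secrete, was at 314, 348, 263, 313 and 305 FPKM in m/m and at 2255, 869 and 980.2 FPKM in db/db (2.01, adjusted p = 0.000463). Lcn2, a protein of injured tubules and neutrophils, was at 1.52, 0.9703, 1.99, 0.688 and 2.28 FPKM in m/m and at 109.6, 9.44 and 12.5 FPKM in db/db (3.37), higher in every db/db library and by far the highest in db/db vehicle 1. Havcr1, which encodes the tubular injury marker KIM-1, was at 0.957, 0.607, 0.804, 0.906 and 1.42 FPKM in m/m and at 3.32, 0.932 and 0.241 FPKM in db/db and was not called. The cytokine Il34 fell by 1.73 on the log2 scale, and Krt7 (1.05), S100a6 (1.28) and Cxcl1 (1.12) rose.

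Complement and clotting genes moved strongly in both directions. Of 40 tested 20 rose and 10 fell (18 and 12 after scaling, 16 and 11 without db/db vehicle 1), with a median of 0.67. Complement C3 was at 7.43, 8.73, 4.83, 8.58 and 5.102 FPKM in m/m and at 204, 69.98 and 66.7 FPKM in db/db (3.68, adjusted p = 9.52e-05). The fibrinogen chain Fgg (2.42), Clu (1.25) and the C1 inhibitor Serping1 (1.28) rose. Serpinf2, the plasmin inhibitor, was at 222, 195, 267, 182 and 239.8 FPKM in m/m and at 37.96, 65.8 and 29.1 FPKM in db/db (−2.36), and urokinase, Plau, fell from 305 ± 39.5 to 150.1 ± 57.2 FPKM (−1.07).

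Antigen presentation genes were far higher in 1 library of each group than in the others. The summed level of the list was 2595 FPKM in m/m 1 against 960.4 to 1010 FPKM in the other m/m libraries, and 6958 FPKM in db/db vehicle 1 against 1162 and 1715 FPKM in db/db vehicle 2 and 3. Cd74, the invariant chain of MHC class II, was at 611, 139, 154, 150.3 and 125 FPKM in m/m and at 1809, 216 and 366 FPKM in db/db (log2 fold change 1.46, 95% interval −0.16 to 3.07, adjusted p = 0.113). The groups overlapped, and only Ctss of 23 tested genes was called in both scalings. Without db/db vehicle 1 the list had 1 gene higher and 2 lower, without m/m 1 it had 9 higher and without db/db vehicle 2 it had 7 higher. With m/m 1 and db/db vehicle 1 both left out it had 12 higher and 2 lower. Of 32 interferon-stimulated genes 2 rose and 0 fell (1 and 2 after scaling), and 1 rose and 2 fell without db/db vehicle 1. The number that rose was 8 without m/m 1, 4 without db/db vehicle 2 and 1 without any one of m/m 2 to 5 or db/db vehicle 3. In the plasma cell gene Jchain the levels were 13.1, 5.82, 22.4, 4.87 and 5.73 FPKM in m/m and 73.4, 14.4 and 1.28 FPKM in db/db, and the basal keratin Krt5 was at 8.79, 0.0304 and 0.0611 FPKM in db/db, high in db/db vehicle 1 alone.

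**Figure D4:**
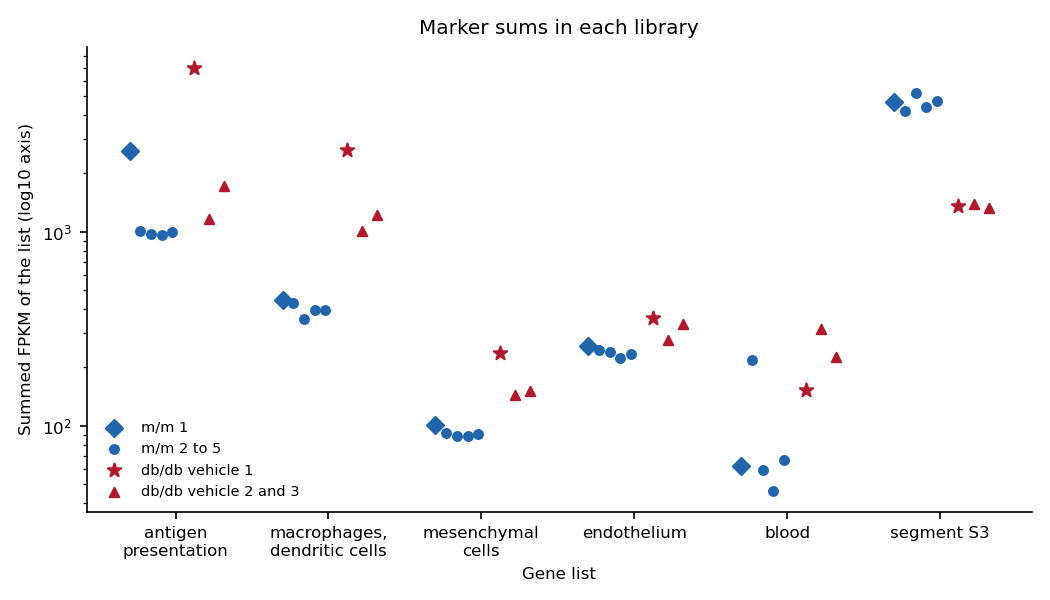
Summed FPKM of the listed genes in each of the 8 libraries on a log10 axis, for antigen presentation, macrophages and dendritic cells, mesenchymal cells, endothelium, blood and the S3 segment. Db/db vehicle 1 and m/m 1 are the highest of their groups for antigen presentation, at 6958 and 2595 FPKM, while the S3 sums lie between 1325 and 1384 FPKM in db/db and at 4163 FPKM or more in m/m. A sum follows its most abundant genes and does not count cells.

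Markers of other cell types were followed across the same libraries, and their part in the results above was not tested. Of 18 macrophage and dendritic cell markers 11 rose and 1 fell (6 and 1 after scaling, 6 and 2 without db/db vehicle 1), with sums of 354 to 447 FPKM in m/m and 1003 to 2630 FPKM in db/db. The number that rose was 7 without m/m 2 or m/m 5 and 6 without m/m 3 or db/db vehicle 3. A sum follows its most abundant genes and does not count cells. The level of Spp1 alone, given above, was most of the size of the macrophage sum in every library, and tubule cells secrete it too. Lyz2 was at 41.7, 22.6, 27.6, 23.4 and 25.9 FPKM in m/m and at 174, 71.2 and 128 FPKM in db/db (2.05), while the lineage receptor Csf1r, which overlaps another gene, was at 17.6 ± 2.58 and 14.5 ± 7.78 FPKM and was not called. Of 18 pericyte, smooth muscle, fibroblast and mesangial markers 14 rose and 0 fell (13 and 0 after scaling, 12 and 0 without db/db vehicle 1), Acta2 (0.89) and Vim (0.98) among them. The median was 0.70, or 0.51 without db/db vehicle 1. Their sums were 88.3 to 100.8 FPKM in m/m and 143 to 237 FPKM in db/db. Of 17 endothelial markers 11 rose and 0 fell (6 and 2 after scaling, 10 and 0 without db/db vehicle 1), with Eng (0.82) and Nos3 (0.72, overlapping another gene) highest. Their sums were 224 to 257 FPKM in m/m and 278 to 360 FPKM in db/db. Of 8 lymphocyte and plasma cell markers 1 rose and 0 fell (0 and 0), with sums of 9.42 to 28.2 and 4.80 to 86.7 FPKM. Haemoglobin genes varied between libraries of both groups and were not called, and Hbb-bs was at 22.1, 88.1, 18.9, 16.8 and 23.9 FPKM in m/m and at 26.9, 123 and 63.6 FPKM in db/db. In the blood list 3 of 9 rose (2 after scaling), which were the neutrophil genes S100a8 and S100a9 and, as deposited only, Slc4a1, while 8 rose without m/m 2, with sums of 46.4 to 217 and 152 to 317 FPKM. S100a8 kept its call in 6 of the 8 fits that leave out 1 library. S100a9 was at 4.13, 1.34, 1.62, 0.747 and 3.25 FPKM in m/m and at 47.8, 3.46 and 41.6 FPKM in db/db, and kept its call in 7 of these fits. Adipocyte-defining genes were at or near 0, with m/m and db/db means of 0.00987 and 0 FPKM for Adipoq, 0 and 0.0219 for Plin1 and 0 and 0.00644 for leptin, Lep. Of that list Lpl, Car3 and Fabp4 were tested, with 1 higher and 1 lower (0 and 2), and the list summed to 204 to 298 and 86.0 to 111 FPKM. Adrenal markers summed to 0.334 to 0.505 and 2.12 to 3.01 FPKM, with Dbh listed at 0 in both groups and Hsd3b1, the 1 tested gene, at 1.23. Of 7 urothelial and papillary markers 0 rose and 1 fell (0 and 2), with sums of 401 to 475 and 305 to 452 FPKM that were mostly Aqp1, also a proximal tubule gene, which fell and kept its call in 3 of these fits. Skeletal muscle had 2 tested genes, of which Pvalb, also a distal tubule gene, rose (0.57), with Myh1 at 0.00205 and 0 FPKM and sums of 35.5 to 45.8 and 50.2 to 66.1 FPKM.

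Secreted and urinary proteins split evenly, 5 of 14 up and 5 down (5 and 7 after scaling). Their sum was 44117 to 50061 FPKM in m/m, most of it Kap, and 6602 to 9144 FPKM in db/db. The selenium-dependent plasma peroxidase Gpx3, the most abundant transcript of the db/db kidney, was at 12060.5, 12074, 11226, 12342 and 12308 FPKM in m/m and at 19483, 20451 and 19450.2 FPKM in db/db (0.72), and its share of reads went from 1.95% to 3.21%. The selenium carrier Selenop, which overlaps another gene, fell from 1783 ± 178 to 507 ± 49.4 FPKM (−1.81), and the proximal tubule amidase Acy3 from 2313 ± 341 to 461 ± 33.6 FPKM (−2.32). Ttr, transthyretin, varied widely within groups, at 0.938, 0.386, 66.6, 0.297 and 94.8 FPKM in m/m and at 2.58, 25.4 and 1.07 FPKM in db/db, and was not called.

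A few genes were on in 1 genotype and off in the other. Below 0.1 FPKM in every library of one group and at least 1 FPKM in every library of the other there were 2 genes expressed in m/m and 1 expressed in db/db. Neurog2, a proneural transcription factor, was at 2.31, 1.72, 2.19, 2.13 and 1.25 FPKM in m/m and listed at 0 in all 3 db/db libraries. These values stood for 352 reads in m/m and 0 in db/db, so against a floor of 3 reads over the group it was at least 67.6-fold lower. In the left-out db/db vehicle 4 and 5 it was also listed at 0. The serine protease gene Tmprss9 was at 1.61, 1.06, 1.71, 1.21 and 2.02 FPKM in m/m and at 0.07403, 0.0947 and 0.0634 FPKM in db/db, while db/db vehicle 4 and 5, at 0.236 and 0.374 FPKM, were above the limit of 0.1 but below every m/m library. The homeobox gene Nkx6-2 was at 0.0602, 0.09299, 0, 0.0317 and 0.0592 FPKM in m/m and at 9.41, 2.45 and 3.18 FPKM in db/db, with 40.9 and 37.9 FPKM in db/db vehicle 4 and 5, and is uncertain because it overlaps another gene.

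At the locus that defines the genotype, Lepr was at 0.815, 0.533, 0.889, 0.768 and 0.828 FPKM in m/m and at 1.598, 0.457 and 0.4302 FPKM in db/db, high in db/db vehicle 1 and low in the other two (log2 fold change −0.01, 95% interval −0.43 to 0.42). The value counts all Lepr transcripts, and the db mutation changes splicing of the long form, so it does not check the genotype. Leprot, which shares its promoter region with Lepr, rose by 0.37. Among the 40 tested genes nearest to Lepr on chromosome 4, 20 on each side in gene order, 14 were higher and 9 lower, or 6 and 15 after scaling, against 41.6% and 11.1% of all genes (19.2% and 24.6% after scaling). Fyb2 (1.03), Mroh7 (0.97) and Bsnd rose, and Fam151a (−2.05, overlapping another gene) and the complement gene C8a (−1.54) fell.

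By the pathway names in the deposited table, 270 of 290 pathways with 15 to 200 tested genes had a median log2 fold change above 0, or 209 after scaling. The 6 highest medians were those of Staphylococcus aureus infection (0.77), a pathway of complement, MHC and keratin genes, retinol metabolism (0.63), complement and coagulation cascades (0.61), metabolism of xenobiotics by cytochrome P450 (0.59), phenylalanine metabolism (0.52) and autoimmune thyroid disease (0.52). In the last, 4 of 23 genes were called, so its median rested on genes that did not pass. In the first, 15 of 38 genes rose, 39.5% against 41.6% of all tested genes, and 4 fell, so its median too rested largely on genes that did not pass. The 6 lowest were butanoate metabolism (−0.25), steroid hormone biosynthesis (−0.17), propanoate metabolism (−0.15), beta-alanine metabolism (−0.14), mucin type O-glycan biosynthesis (−0.13) and degradation of valine, leucine and isoleucine (−0.13). In butanoate metabolism 12 of 22 genes fell and 4 rose, and in branched-chain amino acid breakdown 22 of 46 fell and 10 rose.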

How the data were processed

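Per the labels' protocols, RNA was isolated with the mirVana kit and stranded mRNA libraries were made with the TruSeq kit. The deposited table holds FPKM per gene and library, and the tools named for it, per the submitters' processing notes, were HISAT2, Cufflinks, HTSeq and Trimmomatic, with build GRCm39. Their versions, filters and strand setting are not given in the sources. FPKM were tested in limma 3.58.1 (R 4.3.3) on log2(FPKM + 1) with an intensity trend, 5 m/m against 3 db/db vehicle libraries, over genes averaging 0.5 FPKM or more. P-values were Benjamini-Hochberg adjusted and called under 0.05; intervals are 95%. FPKM steps gave whole reads for 100% of values (relative tolerance 1e-08), which set the depths and shares of reads, and a voom fit on them is an alternative. The fit was tried on simulated data with few changed genes, as many up as down, and the spread of m/m. That setting does not test it where 52.7% of genes are called and the split depends on scaling. Genes were called overlapping where at least 10% of their exons overlap another gene in GRCm38, by symbol. Named genes were the 15 largest non-overlapping changes per direction, up to 5 called members per list, defining markers, neighbours of Lepr and genes holding most reads; others were chosen after their values were seen. Members and lists were chosen with earlier results of these data known. The floor from reads covers counting error only, while the intervals come from the limma fit and measure the spread between libraries. Some genes named by these rules are not reported here.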

Additional observations from a re-analysis of the deposited data

Results flagged for a closer look

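Among the 5 m/m libraries, 19 of 189 named genes and 6 of 45 list sums had 1 library separated from the nearest other by more than 0.71 of the whole range. Chance gives such a gap in about 1 of 20 groups. M/m 1 was the high library for Cd74 (611 FPKM), Clca3a1 (4.21 FPKM), Ctss (17.2 FPKM), Cyp1b1 (6.94 FPKM), Lyz2 (41.7 FPKM) and Serping1 (21.6 FPKM). It was also the high library for the sums of antigen presentation (2595 FPKM), interferon-stimulated genes (405.2 FPKM) and pericyte, smooth muscle, fibroblast and mesangial markers (100.8 FPKM). M/m 2 was the high library for Hbb-bs (88.1 FPKM), Hsph1 (35.1 FPKM), Plin4 (0.330 FPKM), Rps2 (339.7 FPKM) and Rpsa (98.4 FPKM), and for the sums of blood markers (217.4 FPKM) and ribosomal protein genes (15418 FPKM). In m/m 4, Npas2 was low (1.29 FPKM), Per2 high (4.99 FPKM) and the clock sum high (343.1 FPKM), and C8a was low (4.998 FPKM). M/m 3 was high for Ace (104.2 FPKM) and low for Fam151a (75.8 FPKM) and Gpx3 (11226 FPKM). M/m 5 was high for Fabp1 (0.475 FPKM) and Gpt (22.1 FPKM).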

How the results depend on the processing

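With quantile normalization 2289 genes were higher and 2537 lower, and with median-of-ratios scaling 2362 and 3024. With db/db vehicle 4 and 5 added 1915 were higher and 936 lower; the cause was not tested. Leaving out 1 library gave 4223 to 4881 genes higher and 1174 to 1340 lower. With the replicate block 3744 were higher and 1021 lower. Deviations from the group means correlated between same-numbered libraries at 0.39, 0.052 and −0.0083 for numbers 1, 2 and 3. Libraries of different numbers were not compared, so these values cannot decide whether the numbers pair libraries. The main fit used no pairing. With the replicate block 10 of 23 antigen presentation genes were higher, against 1 in the main fit. Both counts stayed within 1.5 times with a pseudocount of 0.1, other filters, array weights, voom on recovered reads (5203 and 1357), and with m/m 1 and db/db vehicle 1 left out, a setting chosen after seeing the data (4236 and 1181). Of 172 named called genes 135 kept direction and call in every setting run on them. Having 3 db/db libraries limits the precision.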
